A study of Mus musculus with 8 samples.

Results

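The receptor complex of the secreted guidance protein SEMA3E was followed here through the transcripts of 6 genes in B16, a pigmented melanoma cell line of the mouse. The genes were Plxnd1, Nrp1, Nrp2, Kdr, Gipc1 and Erbb2, taken by name from the array files with every probe that carries the name. They made up 6 of the 34834 gene names on the array and had 9 of its 55698 probes. The 4 groups were treated with cytochalasin D for 8 h, with SEMA3E for 8 h, or with SEMA3E for 2 h, or were untreated controls labelled 0 h, with 2 biological replicates in each and 1 array per replicate. All groups came from the same cell line grown in medium with fetal bovine serum, and the labels name no genetic change. Neither dose nor vehicle is given in the sources used here. The 8 h groups had no control of the same time in culture.

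SEMA3E is a class 3 semaphorin that binds plexin D1 directly, and plexin D1 passes the signal on through a GTPase-activating domain that acts on small Ras-family GTPases. Neuropilin 1 and neuropilin 2 are coreceptors of most class 3 semaphorins and of VEGF, and in neurons neuropilin 1 together with the VEGF receptor Kdr changes the response of plexin D1 to SEMA3E. Gipc1 is a PDZ adaptor that binds the tails of plexin D1 and neuropilin 1 and links them to endocytic transport, and the receptor tyrosine kinase Erbb2 can associate with plexin D1 in tumour cells that carry cleaved SEMA3E. Cytochalasin D stops actin filaments from growing and served as a second treatment that acts on the cytoskeleton directly.

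Each probe is a stretch of 60 bases, and the files give no position for it in its gene. Plxnd1, Nrp2 and Kdr each had 2 probes, called bright and dim below after their mean signal, and the others had 1. A run of 30 bases from each probe of these pairs is printed because the members of a pair read different parts of the transcripts: the longest run of bases that the probes of a pair share was 5. The sequences are those of the deposited files, read 5′ to 3′, and capitals mark AATAAA, the common polyadenylation signal near the end of an mRNA.
Plxnd1 bright probe, bases 24 to 53: aacattctttatAATAAAagcctgccggga
Plxnd1 dim probe, bases 1 to 30: agggaatttctgcttcagccaccaagcagt
Nrp2 bright probe, bases 31 to 60: tactgtgattcttcaatgtaaaaAATAAAa
Nrp2 dim probe, bases 1 to 30: ggtttctgttggctgtcattgtcatctcca
Kdr bright probe, bases 1 to 30: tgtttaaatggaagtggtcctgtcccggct
Kdr dim probe, bases 1 to 30: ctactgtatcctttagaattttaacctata
The motif AATAAA was searched over the whole of each probe and was in the bright probes of Plxnd1 and Nrp2 and in none of the other 7. Of all probes on the array, 10.1% hold it and 3.74% hold its reverse complement TTTATT, which none of the 9 holds. The files assign the Nrp2 bright probe to transcript variant 1 and the Nrp2 dim probe to transcript variant 5.

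All levels are log2 of the scanner's processed signal minus the 75th percentile, on the same array, of the 18687 probes that were detected on every array, meaning that the files mark them as well above background. A level of 0 is thus that percentile, and a difference of 1 is 2-fold. Differences come from limma fitted to all 24667 probes tested and are given ± SE with a 95% interval, and a probe was called at a Benjamini-Hochberg adjusted p under 0.05. Levels of different probes are not set against each other, because probes differ in how brightly they report. In a bulk measurement, fewer cells with a transcript and less of it per cell cannot be told apart.

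The labelled cell type fitted its markers: 7 of 7 melanocyte genes, Dct, Tyrp1, Pmel, Mlana, Tyr, Mitf and Sox10, were well above background on all 8 arrays. Of 8 endothelial genes, Pecam1 and Egfl7 were, whereas Cdh5, Tie1, Tek, Cldn5 and Emcn were so on none. Of 6 fibroblast and 6 leukocyte genes, 2 each were well above background on all arrays. The share of spots well above background was 37.8% to 48.2% per array, and 0 spots were saturated. The 75th percentile used for scaling was 2050 and 1410 with cytochalasin D, 2720 and 2250 with SEMA3E for 8 h, 1200 and 1170 with SEMA3E for 2 h and 2770 and 2300 in control, so the SEMA3E 2 h arrays were the dimmest.

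Transcripts of the receptor itself and of 4 of its 5 partners were detected in every group, Kdr on its bright probe only. Plxnd1, Nrp2, Gipc1, Erbb2 and the bright probe of Kdr were well above background on all 8 arrays. Nrp1 was not: its single probe was well above background on 1 of 8 arrays. Over 7 probes of 5 genes and 5 comparisons, 35 differences were tested and 0 were called, with a lowest adjusted p of 0.393 (limma). Of all probes tested, 0.00405% were called when SEMA3E at 8 h was set against control, and 0% in each of the other 4 comparisons. The unadjusted p was under 0.05 for 2 of the 35, both of the Nrp2 dim probe. All 35 differences lay between -1.20 and 1.09, and 32 of them were under 1 in size.

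**Figure D1:**
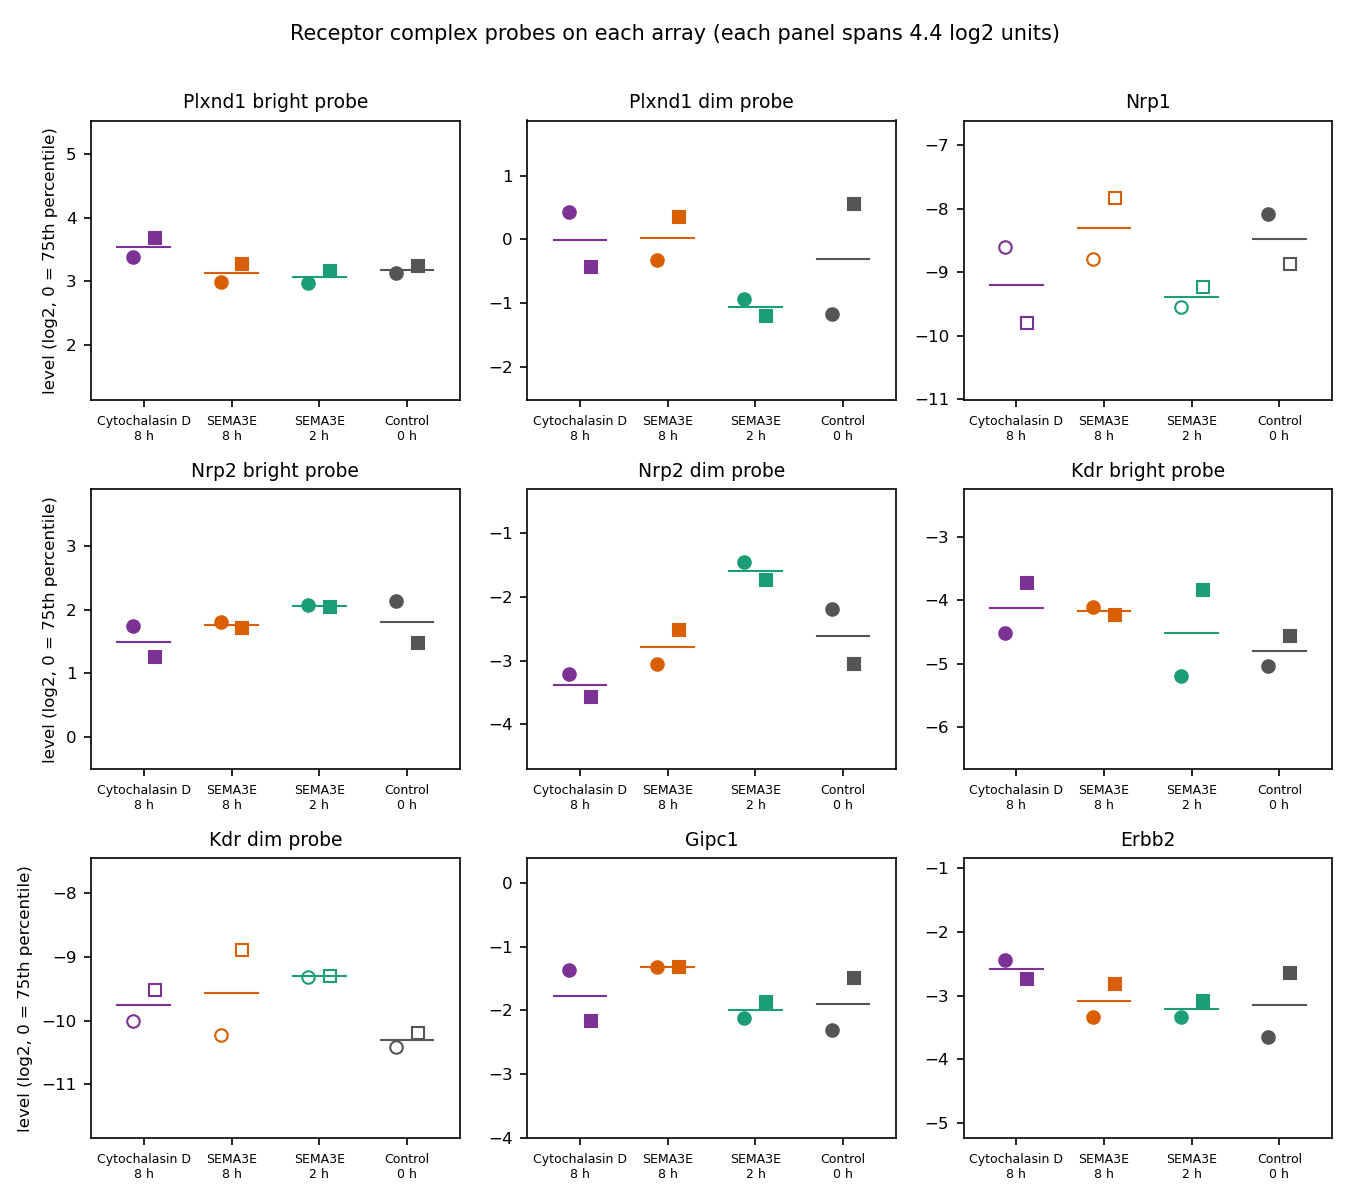
Level of each of the 9 probes on each array, on a log2 scale where 0 is the 75th percentile of detected probes, by group; circles are replicate 1, squares replicate 2, lines group means, and open symbols arrays where the probe was not well above background. The Plxnd1 bright probe stays between 2.97 and 3.69, the Nrp2 dim probe is highest on both SEMA3E 2 h arrays, and Nrp1 and the Kdr dim probe are mostly or wholly open symbols.

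Plxnd1, the receptor that binds SEMA3E, was read by a bright probe whose levels spanned 2.97 to 3.69 over the 8 arrays. It lay at 3.39 and 3.69 with cytochalasin D, at 2.99 and 3.28 with SEMA3E for 8 h, at 2.97 and 3.17 with SEMA3E for 2 h and at 3.13 and 3.24 in control. Both cytochalasin D arrays were above the other 6, whereas both SEMA3E groups overlapped with control.

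SEMA3E at 2 h differed from control by -0.11 ± 0.27 on that probe (interval -0.75 to 0.53, adjusted p = 0.898, limma). SEMA3E at 8 h differed from control by -0.05 ± 0.27 (interval -0.68 to 0.59, adjusted p = 0.990) and from SEMA3E at 2 h by 0.06 ± 0.27 (interval -0.57 to 0.70, adjusted p = 0.926). Those intervals leave out a doubling and a halving of the receptor transcript at either time, as this probe reads it. Cytochalasin D differed from control by 0.36 ± 0.27 (interval -0.27 to 1.0, adjusted p = 1.0) and from SEMA3E at 8 h by 0.41 ± 0.27 (interval -0.23 to 1.04, adjusted p = 0.567). The SE of this probe was below the median of 0.36 over all probes. Scaled to the median of all probes, however, SEMA3E at 8 h differed from control by -1.21 and cytochalasin D from SEMA3E at 8 h by 1.39, a scaling under which the median of all tested probes was -1.01 and 0.80 in these comparisons, against 0.15 and -0.18 without it.

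The dim Plxnd1 probe spread far more between replicates. Its levels were 0.43 and -0.44 with cytochalasin D, -0.33 and 0.36 with SEMA3E for 8 h, -0.93 and -1.21 with SEMA3E for 2 h and -1.17 and 0.55 in control. The control arrays alone were 3.30-fold apart, and they spanned the levels of every other array except 1 of SEMA3E at 2 h. Without overlap, SEMA3E at 8 h lay above SEMA3E at 2 h by 1.09 ± 0.59 (interval -0.31 to 2.48, adjusted p = 0.457, limma), the largest positive difference of any receptor complex probe. SEMA3E at 2 h differed from control by -0.76 ± 0.59, which became 0.10 without control replicate 2.

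The gap between the Plxnd1 probes was set beside the median gap over genes with such pairs. Taken as the dim minus the bright probe on each array, relative to its mean over the 8 arrays, the Plxnd1 gap was 0.62 and -0.56 with cytochalasin D, 0.26 and 0.65 with SEMA3E for 8 h, -0.32 and -0.81 with SEMA3E for 2 h and -0.72 and 0.89 in control. Over 780 genes with a probe that holds AATAAA and one that does not, the median of the same gap was 0.15 and -0.21 with cytochalasin D, 0.05 and 0.26 with SEMA3E for 8 h, -0.10 and -0.07 with SEMA3E for 2 h and -0.22 and 0.17 in control. The Plxnd1 gap and this median lay on the same side of 0 on 8 of 8 arrays. The Nrp2 gap, from a pair of the same kind, did so on 2 of 8. What part the median gap has in the Plxnd1 dim probe was not tested.

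**Figure D2:**
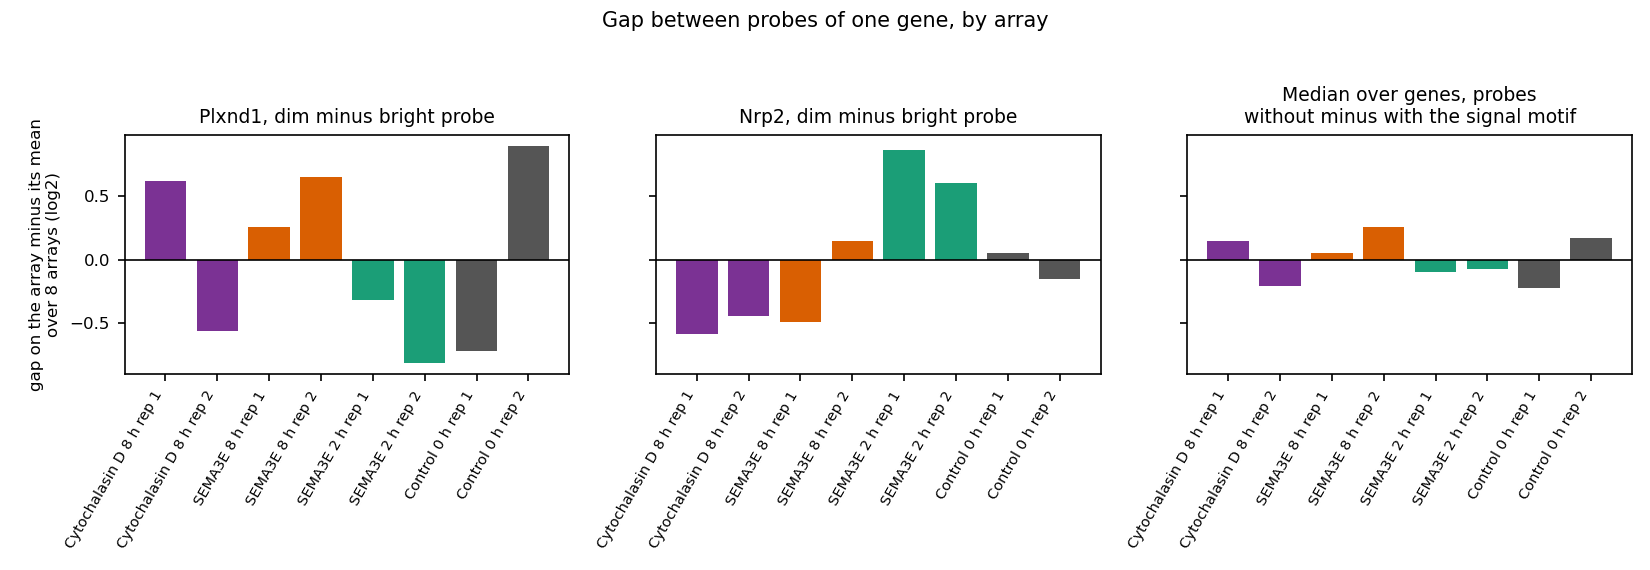
Gap between probes of one gene on each array, minus its mean over the 8 arrays (log2), for Plxnd1, for Nrp2 and as the median over 780 genes with a probe that holds the polyadenylation signal and one that does not; colours are groups. The Plxnd1 bars and the median have the same sign on 8 of 8 arrays, and the Nrp2 bars are highest on the SEMA3E 2 h arrays at 0.86 and 0.60.

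Neuropilin 2 was well above background on both of its probes, and its dim probe was the member with the smallest p-values. That probe lay at -3.21 and -3.57 with cytochalasin D, at -3.06 and -2.52 with SEMA3E for 8 h, at -1.45 and -1.73 with SEMA3E for 2 h and at -2.19 and -3.05 in control. Both SEMA3E 2 h arrays were above the other 6, and both cytochalasin D arrays were below them.

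SEMA3E at 2 h was above control by 1.03 ± 0.38 on the dim probe (interval 0.14 to 1.92, unadjusted p = 0.0285, adjusted p = 0.529, limma). The difference of SEMA3E at 8 h from SEMA3E at 2 h was -1.20 ± 0.38 (interval -2.09 to -0.31, unadjusted p = 0.0148, adjusted p = 0.393). At 8 h SEMA3E differed from control by -0.17 ± 0.38 (interval -1.06 to 0.72). Cytochalasin D differed from control by -0.77 ± 0.38 (interval -1.66 to 0.12, adjusted p = 1.0) and from SEMA3E at 8 h by -0.60 ± 0.38 (interval -1.49 to 0.29, adjusted p = 0.550), in both cases without overlap. Without control replicate 2 the difference of SEMA3E at 2 h from control was 0.60, and scaled to the median of all probes it was 0.44. With the normexp background correction the difference of SEMA3E at 2 h from control was 1.11 with an adjusted p of 0.044. That setting called 6048 probes in this comparison, 5951 of them higher with SEMA3E, and over all 17 alternatives run for this probe the adjusted p ranged from 0.044 to 0.931.

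The unscaled signal of the Nrp2 dim probe did not set SEMA3E at 2 h apart: it was 438 and 352 with SEMA3E for 2 h, against 607 and 278 in control. The difference appears after scaling to each array's 75th percentile, which was lowest on the SEMA3E 2 h arrays, and the part of array brightness in it was not tested.

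The bright Nrp2 probe, assigned to transcript variant 1, showed a smaller difference of the same sign. Its levels were 1.74 and 1.25 with cytochalasin D, 1.81 and 1.71 with SEMA3E for 8 h, 2.07 and 2.05 with SEMA3E for 2 h and 2.13 and 1.47 in control. SEMA3E at 2 h differed from control by 0.26 ± 0.32 (interval -0.51 to 1.02, adjusted p = 0.799, limma) and SEMA3E at 8 h by -0.04 ± 0.32 (interval -0.80 to 0.72). SEMA3E at 8 h lay below SEMA3E at 2 h without overlap, by a difference of -0.30 ± 0.32 (interval -1.06 to 0.46, adjusted p = 0.680), and cytochalasin D differed from control by -0.31 ± 0.32 (interval -1.07 to 0.45). Within arrays, the dim probe stood highest relative to the bright one on the SEMA3E 2 h arrays, at 0.86 and 0.60 above the mean gap, against 0.05 and -0.15 on the control arrays. This difference between the probes was not tested, and whether either probe reads only its assigned variant was not checked.

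Sums of marker genes also differed between groups, on a linear scale on which 1 is the 75th percentile. The 8 endothelial genes summed to 1.17 to 1.37 with cytochalasin D, 1.11 to 1.29 with SEMA3E for 8 h, 1.66 to 1.87 with SEMA3E for 2 h and 0.974 to 1.55 in control. Egfl7 carried most of this sum, with log2 means of 0.77 with SEMA3E for 2 h and 0.27 in control, while Pecam1 had -4.91 and -5.94 and the defining genes Cdh5, Tie1, Tek, Cldn5 and Emcn were not well above background on any array. The 7 melanocyte genes summed to 100 to 107 with cytochalasin D, 92 to 99.3 with SEMA3E for 8 h, 112 to 137 with SEMA3E for 2 h and 90.9 to 96 in control. Most of that sum came from Mlana, Tyrp1, Dct and Pmel, whereas Tyr, the tyrosinase that starts melanin synthesis, differed by -0.75 ± 0.35 between SEMA3E at 2 h and control, without overlap (adjusted p = 0.529, limma). The 6 leukocyte genes summed to 0.0592 to 0.0723 with cytochalasin D, 0.0911 to 0.122 with SEMA3E for 8 h, 0.0977 to 0.118 with SEMA3E for 2 h and 0.0576 to 0.07 in control, so both SEMA3E groups lay above the other groups. Itgam differed from control by 0.76 ± 0.29 with SEMA3E at 8 h (adjusted p = 0.756) and by 0.96 ± 0.29 at 2 h (adjusted p = 0.518), Cd3e by 0.81 ± 0.29 at 8 h (adjusted p = 0.735), and Ptprc, the marker of all leukocytes, was well above background on 1 of 8 arrays. The part of these cell type markers in the Nrp2 and other member values was not tested.

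Neuropilin 1, the other neuropilin, was close to the limit of detection in B16 cells. Its signal was 5.28 and 1.58 with cytochalasin D, 6.15 and 9.87 with SEMA3E for 8 h, 1.59 and 1.95 with SEMA3E for 2 h and 10.2 and 4.93 in control. Only control replicate 1, at 10.2, was marked well above background. The lowest signal so marked was between 6.62 and 9.22 on 7 of the arrays and was 19.0 on replicate 2 of SEMA3E at 8 h. No fold is given, since a bound from these limits was under 1 in each comparison with control, and with a single probe the low signal cannot be told apart from a probe that reports poorly.

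Kdr, the main signalling receptor of VEGF in endothelial cells, was detected on its bright probe and not on the other. The bright probe had levels of -4.51 and -3.73 with cytochalasin D, -4.10 and -4.24 with SEMA3E for 8 h, -5.19 and -3.84 with SEMA3E for 2 h and -5.03 and -4.57 in control. Both 8 h groups lay above control without overlap, and the SEMA3E 2 h arrays, 2.55-fold apart, spanned control. SEMA3E at 8 h differed from control by 0.63 ± 0.49 (interval -0.52 to 1.79, adjusted p = 0.864, limma), SEMA3E at 2 h by 0.29 ± 0.49 (interval -0.86 to 1.44) and cytochalasin D by 0.68 ± 0.49 (interval -0.47 to 1.83). Without control replicate 1 the difference of SEMA3E at 8 h was 0.40, and scaled to the median of all probes it was -0.53. Cytochalasin D and SEMA3E at 8 h differed by 0.05 ± 0.49 (interval -1.1 to 1.2). The dim Kdr probe was well above background on 0 of 8 arrays, with signals from 1.85 to 4.75. Why the Kdr probes disagree on detection was not tested.

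Gipc1, the adaptor, was highest with SEMA3E for 8 h. Its levels were -1.37 and -2.17 with cytochalasin D, -1.32 and -1.32 with SEMA3E for 8 h, -2.12 and -1.87 with SEMA3E for 2 h and -2.30 and -1.49 in control. The SEMA3E 8 h arrays lay above all others without overlap, with cytochalasin D replicate 1 close below them. SEMA3E at 8 h differed from control by 0.58 ± 0.39 (interval -0.34 to 1.49, adjusted p = 0.855, limma), a value of 0.17 without control replicate 1, 0.98 without control replicate 2 and -0.58 when scaled to the median of all probes. It differed from SEMA3E at 2 h by 0.67 ± 0.39 (interval -0.24 to 1.58, adjusted p = 0.472). Cytochalasin D differed from SEMA3E at 8 h by -0.45 ± 0.39 (interval -1.36 to 0.46) and from control by 0.12 ± 0.39, and SEMA3E at 2 h differed from control by -0.10 ± 0.39. Over all tested probes, the correlation of a probe's deviation from its own mean with its GC content was -0.02 and -0.17 with cytochalasin D, 0.17 and 0.32 with SEMA3E for 8 h, -0.06 and 0.08 with SEMA3E for 2 h and -0.29 and -0.05 in control. The probes of Gipc1 and Erbb2, the dim probe of Plxnd1 and the bright probe of Kdr are each 55% GC, and the part of GC content in their values was not tested.

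Erbb2, the tyrosine kinase partner, lay at -2.44 and -2.74 with cytochalasin D, at -3.34 and -2.82 with SEMA3E for 8 h, at -3.34 and -3.09 with SEMA3E for 2 h and at -3.65 and -2.65 in control. The control arrays spanned every SEMA3E array. Cytochalasin D was above SEMA3E at 8 h without overlap, by 0.48 ± 0.39 (interval -0.44 to 1.41, adjusted p = 0.637, limma), and differed from control by 0.56 ± 0.39 (interval -0.37 to 1.48), which was 0.06 without control replicate 1 and 1.06 without control replicate 2. SEMA3E differed from control by 0.07 ± 0.39 at 8 h (interval -0.85 to 1.0) and by -0.06 ± 0.39 at 2 h (interval -0.99 to 0.86).

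**Figure D3:**
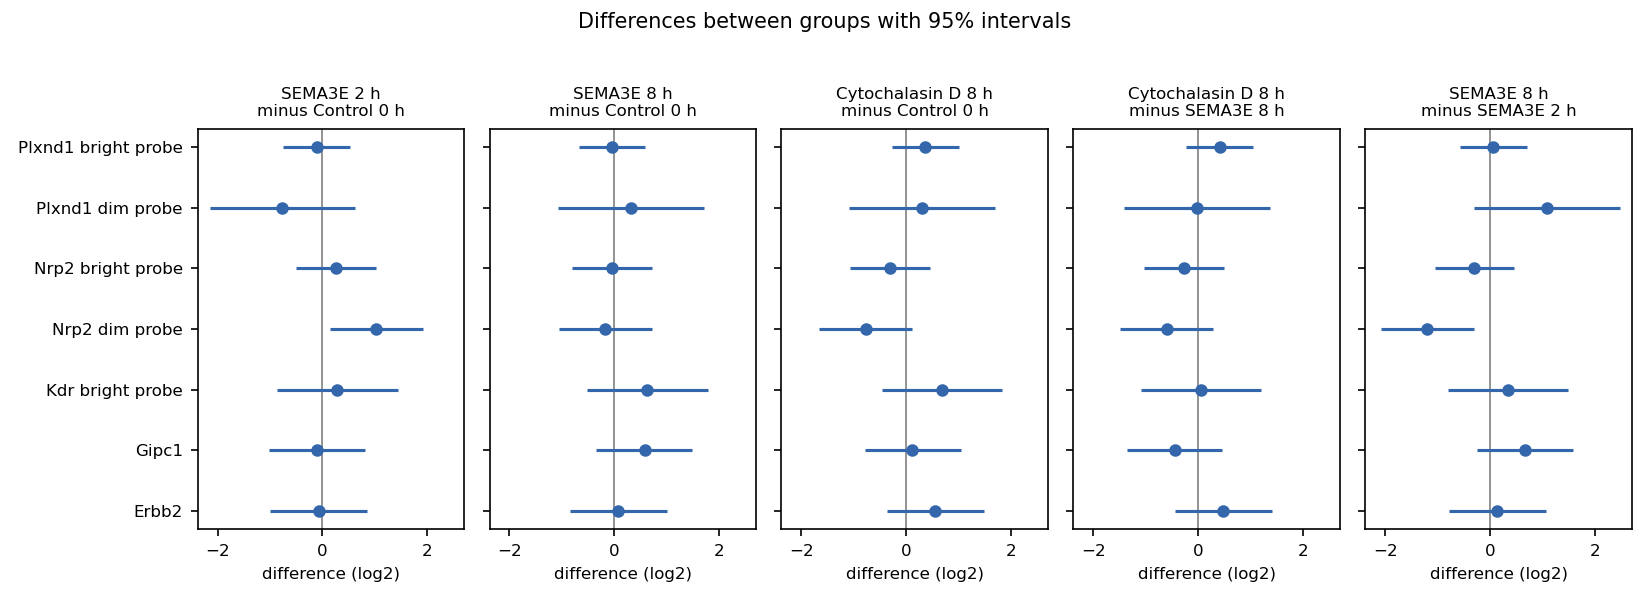
Difference between 2 groups for each of the 7 probes tested (log2, points) with its 95% interval (lines), in the 5 comparisons. The 2 intervals that leave out 0 are those of the Nrp2 dim probe for SEMA3E at 2 h minus control and SEMA3E at 8 h minus SEMA3E at 2 h, and 0 of the 35 differences were called after adjustment.

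The counts for the receptor complex were read against those of all probes tested. For SEMA3E at 2 h against control, 1 of 7 probes had groups that did not overlap, against 39.8% of all probes, and 1 of 7 had an unadjusted p under 0.05, against 9.19%. The median difference of the 7 probes was -0.06 there, beside 0.04 over all probes. For SEMA3E at 8 h against control, 2 of 7 did not overlap, against 37.2%, 0 of 7 had an unadjusted p under 0.05, against 6.46%, and the medians were 0.07 and 0.15. The single probe called in that comparison belonged to Catsperg2, which is no member and was looked up after its value was seen. It passed the filter only through SEMA3E at 8 h, being well above background on 0 arrays of the other groups, and the call was lost with the replicate number as a block, which left 0 probes called. A bound put it at least 3.09-fold higher with SEMA3E for 8 h than in control. The bound was set by the dimmest signal marked well above background on each control array, or by the probe's own signal where that was higher. As the fold favours the group that let the probe through the filter, it is no separate evidence of a difference. For cytochalasin D against control, 3 of 7 did not overlap, against 28.1%, 0 of 7 had an unadjusted p under 0.05, against 2.55%, and the medians were 0.31 for the members and 0.01 for all probes. For cytochalasin D against SEMA3E at 8 h, 4 of 7 did not overlap, against 52.5%, 0 of 7 had an unadjusted p under 0.05, against 11.2%, and the medians were -0.02 and -0.18. For SEMA3E at 8 h against 2 h, 4 of 7 did not overlap, against 51.4%, 1 of 7 had an unadjusted p under 0.05, against 12.1%, and both medians were 0.14. The comparisons with control share the control arrays, so they are not independent of each other.

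In the order of group means, cytochalasin D was highest for the Plxnd1 bright probe, Kdr and Erbb2 and lowest for both Nrp2 probes. SEMA3E at 2 h was highest for both Nrp2 probes and lowest for both Plxnd1 probes, Gipc1 and Erbb2. For the Plxnd1 bright probe the order was cytochalasin D at 3.54 ± 0.21, control at 3.18 ± 0.08, SEMA3E at 8 h at 3.14 ± 0.20 and SEMA3E at 2 h at 3.07 ± 0.14 (SD, n = 2), and no neighbours in it differed past the threshold. The Nrp2 dim probe ran from SEMA3E at 2 h at -1.59 ± 0.20 through control at -2.62 ± 0.61 and SEMA3E at 8 h at -2.79 ± 0.38 to cytochalasin D at -3.39 ± 0.25, again with no neighbours past it.

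The genes whose pattern over the 8 arrays was most like each detected member were found by Pearson correlation among 17499 probes with a gene symbol. For the Plxnd1 bright probe they were Brd7 (r = 0.974), Srd5a1 and Tmem229b (r = 0.972 each), and 129 probes passed r = 0.9. For Nrp2 they were Mrpl40 (r = 0.985), Polr2j (0.978) and S100a4 (0.977), for Kdr Zscan25 (0.979), Rltpr (0.969) and Nipal3 (0.964), for Gipc1 Selo (0.993), Prpf6 (0.991) and Lama4 (0.990), and for Erbb2 Ccdc93 (0.985), Dhdds (0.984) and Tpcn1 (0.982). The 8 arrays and their scaling are shared by all probes, and 511 probes passed r = 0.9 with Gipc1, 318 with Nrp2, 171 with Erbb2 and 33 with Kdr.

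The ligands were read on the same arrays. Sema3e, the ligand added to the cells, was close to background in the cells' own RNA, well above it on 5 of 8 arrays with levels between -8.08 and -7.09. Of the 8 ligands of plexin D1 and the neuropilins, Sema3a and Sema3d were well above background on no array and 6 were tested, with 0 called in either direction in any comparison. Sema3c, which signals through neuropilins and plexin D1 in the developing heart, had means of -5.57 with SEMA3E for 8 h and -4.55 in control, a difference of -1.02 ± 0.39 (unadjusted p = 0.0340, adjusted p = 0.756, limma). For cytochalasin D against SEMA3E at 8 h, 6 of 6 ligands lay above 0 with a median difference of 0.38. Of all probes, 36.9% lay above 0 there, with a median of -0.18. For SEMA3E at 8 h against control the 6 ligands had a median of -0.20, where all probes had 0.15.

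Of the VEGF ligands and other VEGF receptors, 4 of 7 genes were tested and 0 were called. Flt1 and Vegfd were well above background on no array, and Flt4 on 1. Pgf, the placental growth factor, was well above background on 1 cytochalasin D array, both SEMA3E 8 h arrays, 0 of the SEMA3E 2 h arrays and 1 control array. It passed the filter only through SEMA3E at 8 h, the group where it was highest, so its p-values and the median of the 4 genes are not given. Its means were -7.86 with cytochalasin D, -6.37 with SEMA3E for 8 h, -7.54 with SEMA3E for 2 h and -8.19 in control, and no fold is given for the same reason.

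Of 13 other ErbB receptors and their ligands, 3 were tested, and 0 were called. The neuregulin Nrg1 and the receptor Erbb4 were well above background on no array, Egfr on 2 and Erbb3, the usual partner of Erbb2, on 4. Nrg2, a neuregulin, had means of -6.53 with SEMA3E for 8 h and -5.24 with SEMA3E for 2 h, a difference of -1.29 ± 0.55 (unadjusted p = 0.0496, adjusted p = 0.413, limma), and was well above background on 1 of the SEMA3E 8 h arrays and both of 2 h.

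Of 14 genes of plexin D1 signalling, trafficking and ligand processing, 12 were tested and 0 were called. Rap1a, one of the small GTPases that plexins inactivate, had means of -2.45 with SEMA3E for 8 h, -1.97 with SEMA3E for 2 h and -1.08 in control. Its difference from control was -1.37 ± 0.28 at 8 h (unadjusted p = 0.00158, adjusted p = 0.488, limma) and -0.89 ± 0.28 at 2 h (unadjusted p = 0.0150, adjusted p = 0.518), in both cases without overlap. Cytochalasin D differed from SEMA3E at 8 h by 1.33 ± 0.28 (adjusted p = 0.400), with a mean of -1.13 close to that of control. At 8 h, the GTPases Rap1b, Rras, Rras2 and Arf6 of the list did not lie as far below control as Rap1a. With SEMA3E at 8 h, Rap1b differed from control by -0.14 ± 0.32, Rras by 0.81 ± 0.38 and Rras2 by 0.13 ± 0.26. Arf6 differed from control by -0.05 ± 0.52 at 8 h but by -1.06 ± 0.52 at 2 h, with overlap. At 2 h Rap1b differed by -0.10 ± 0.32, Rras by 0.47 ± 0.38 and Rras2 by 0.24 ± 0.26. Myo6, the motor that Gipc1 links to its cargo, was not well above background on either SEMA3E 2 h array. SEMA3E at 2 h differed from control by -2.59 ± 0.59 (unadjusted p = 0.00287, adjusted p = 0.471, limma), a value that rests on those unmarked signals. A bound of the same kind as for Catsperg2 put these group means at least 2.77-fold apart, and the bound itself was not tested. Between SEMA3E at 8 h and SEMA3E at 2 h the Myo6 difference was 2.30 ± 0.59 (adjusted p = 0.386), with a bound of 2.27-fold. Of the 12, Pip5k1c passed the filter only through SEMA3E at 8 h, so no median of the list is given.

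Of 8 other plexins, 7 were tested and 0 were called. All 7 lay above 0 for SEMA3E at 8 h against control, with a median of 0.47, where 65.0% of all probes lay above 0 with a median of 0.15. For cytochalasin D against SEMA3E at 8 h, 6 of 7 lay below 0 with a median of -0.67. Of all probes, 36.9% lay above 0 in that comparison, with a median of -0.18. These signs were read under the main scaling only. Scaled to the median of all probes, the median of all tested probes was -1.01 and 0.80 in these comparisons. The largest plexin difference for SEMA3E at 8 h against control was 0.92, of Plxna4, and the plexins were not read under that scaling. Plxna4 had means of -5.75 with SEMA3E for 8 h and -7.08 with SEMA3E for 2 h, a difference of 1.32 ± 0.44 (unadjusted p = 0.0191, adjusted p = 0.393, limma), with both 8 h arrays and 1 of 2 h well above background. Plxnc1, the receptor of Sema7a, differed by -0.67 ± 0.28 between cytochalasin D and SEMA3E at 8 h (adjusted p = 0.444).

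**Figure D4:**
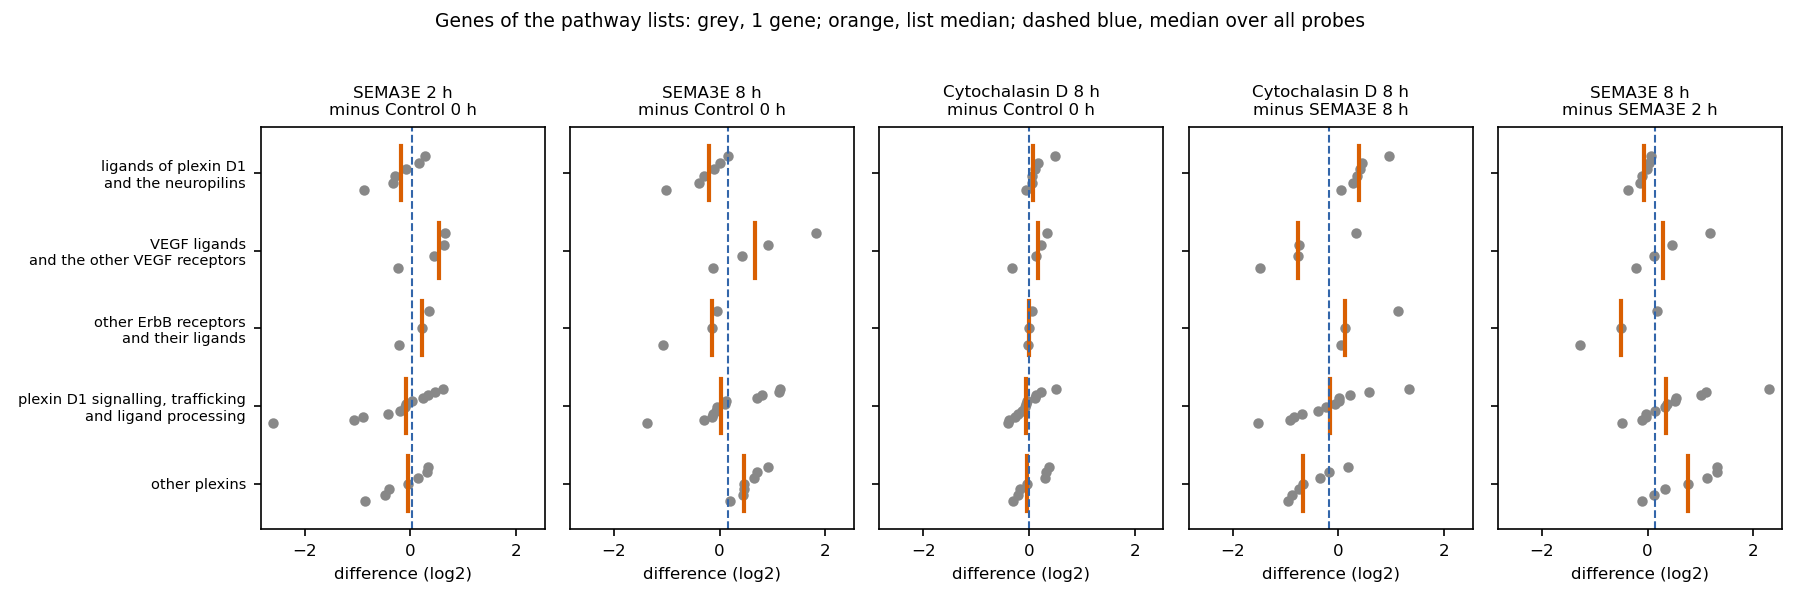
Difference (log2) of each tested gene of the 5 pathway lists in the 5 comparisons; grey points are genes, orange bars list medians and the dashed blue line the median over all probes. The other plexins lie above 0 in 7 of 7 cases for SEMA3E at 8 h minus control, with a list median of 0.47, and 0 genes were called in any list. The plexins were read under the main scaling only. Scaled to the median of all probes, the median of all tested probes was -1.01 in that comparison. Pgf and Pip5k1c passed the filter on dim probes only through SEMA3E at 8 h, so the medians drawn for the VEGF list and the plexin D1 signalling list are not to be read.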

How the data were processed

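RNA of 8 B16 samples was labelled with Cy3 and hybridised to 1-colour arrays, per the labels' protocols. Scanner output came from Agilent Feature Extraction 11.5.1.1, per the file headers. The processed signal is an intensity on a linear scale, background-subtracted and not scaled between arrays, as the authors deposited it. The headers name mouse build mm9 but the files give the probes no position, so no coordinates are given. A deposited table holds 1 intensity per gene name. For Plxnd1 and Nrp2 its values lay within 0.212% and 0.0607% of the geometric mean of all their spots, and for Kdr within 0.134% of the bright probe alone.

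Control spots (1439) and spots marked as outliers were left out, and repeated spots averaged on the log2 scale. A probe was detected on an array when at least 50% of its kept spots were marked well above background. It was tested with a value on all 8 arrays and detection on both arrays of at least 1 group, which 7 of the 9 member probes met. The fit used limma (version 3.58.1, with R version 4.3.3) on the group means of all 8 arrays (4 residual and 3.28 prior degrees of freedom, two-sided, Benjamini-Hochberg over 24667 probes), and the fit was tested on simulated data. The median SE of a difference was 0.36, a 95% half-width of 0.85. Precision is limited by having 2 arrays per group. All arrays lay on 1 slide with each group in neighbouring positions, so slide position and group cannot be told apart. List genes were read on their tested probe with the highest mean, and Vegfd and Adgre1 were matched through RefSeq synonyms. Of the pathway lists, values were given for genes with an unadjusted p under 0.05 in a comparison, at most 3 per list and comparison, and for Sema3e always. Rap1b, Rras, Rras2 and Arf6 were added beside Rap1a, and other list genes were named for their detection. For each detected member the 3 genes with the highest Pearson r were named. The members, lists and comparisons were chosen with earlier results of these data known, and the gap over 780 genes was computed after the Plxnd1 probes had been seen to disagree. The plots were made in Python 3.11.15 with matplotlib 3.10.9. The alternatives changed the background correction, scaling, filter, outlier spots, spread model, unit of the fit, source of the values, replicate block and arrays used.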

Additional observations from a re-analysis of the deposited data

How the results depend on the processing

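With 2 arrays per group, a probe with the median SE has a 95% half-width of 0.85, so smaller differences could not be told from 0. For the 35 member differences, 645 values were computed under 19 alternatives: 580 kept their direction and their side of the threshold, 64 had the opposite direction, and 1, the Nrp2 dim probe for SEMA3E at 2 h against control with normexp (1.11, adjusted p = 0.044), passed it. Of the 35 differences, 12 kept their direction throughout. The replicate numbers share only a number, with correlations of same-numbered deviations from -0.18 to 0.14 between groups. The replicate block changed no member call, and it removed the 1 call for SEMA3E at 8 h against control, giving 0. The deposited table holds 1 value each for Plxnd1 and Nrp2, close to the mean of all their spots, so it mixes their bright and dim probes. Its values for these genes were counted above with the bright probes, although they are not the same quantity. One probe per gene leaves the dim probes out. The causes of the differences between settings were not tested.

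The count of probes called in the main setting was 0 for SEMA3E at 2 h against control, 1 for SEMA3E at 8 h, 0 for cytochalasin D, 0 for cytochalasin D against SEMA3E at 8 h and 0 for SEMA3E at 8 h against 2 h, with 2268, 1594, 630, 2772 and 2977 at an unadjusted p under 0.05. In the same order the deposited table gave 20, 13, 9, 13 and 20, and scaling to the median over all probes 63, 3, 4, 9 and 61, where the median of all probes was -0.56, -1.01, -0.16, 0.80 and -0.43. Normexp gave 6048 for SEMA3E at 2 h against control (median of all probes 0.44), 0 for SEMA3E at 8 h against control, 2 for cytochalasin D against SEMA3E at 8 h and 1 for SEMA3E at 8 h against 2 h. SEMA3E at 8 h against control also gave 0 with an intensity trend, with no filter, with quantile normalization and with normexp and quantile normalization, and one probe per gene gave 1 for cytochalasin D against SEMA3E at 8 h. Leaving out 1 array gave 0 to 355 for SEMA3E at 2 h against control, 0 to 1 for SEMA3E at 8 h against control and 0 to 398 for SEMA3E at 8 h against 2 h, where 355 and 398 were both without SEMA3E 2 h replicate 1.

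Scaled to the median over all probes, the differences for SEMA3E at 2 h against control were -0.34 for the Nrp2 bright probe and -0.30 for Kdr. For SEMA3E at 8 h against control they were -0.58 for Gipc1, -0.83 for the Plxnd1 dim probe, -1.09 for Erbb2 and -0.53 for Kdr, and for cytochalasin D against control -0.05 for Gipc1. For cytochalasin D against SEMA3E at 8 h they were 0.53 for Gipc1, 0.96 for the Plxnd1 dim probe, 0.72 for the Nrp2 bright probe and 0.38 for the dim one. For SEMA3E at 8 h against 2 h they were -0.43 for Erbb2, -0.23 for Kdr and -0.50 for the Plxnd1 bright probe. Scaled to the 75th percentile over all probes, Erbb2 had -0.14 for SEMA3E at 8 h against control and -0.13 against 2 h, the Plxnd1 dim probe 0.23 for cytochalasin D against SEMA3E at 8 h, and the Plxnd1 bright probe -0.20 for SEMA3E at 8 h against 2 h.

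Normexp gave 0.08 for Gipc1 and 0.30 for Erbb2 for SEMA3E at 2 h against control, 0.03 for the Plxnd1 bright probe at 8 h, -0.10 for Gipc1 with cytochalasin D, and -0.21 for Erbb2 and -0.18 for Kdr for SEMA3E at 8 h against 2 h. With quantile normalization added these were 0.05 for Gipc1 and 0.18 for Erbb2 at 2 h, -0.05 for Erbb2 and 0.00 for the Plxnd1 bright probe at 8 h, -0.13 for Gipc1 with cytochalasin D and -0.23 for Erbb2 for 8 h against 2 h. Quantile normalization alone gave Erbb2 0.05 at 2 h, -0.08 at 8 h and -0.13 for 8 h against 2 h. The deposited table, which mixes both Plxnd1 probes, gave Plxnd1 0.15 for SEMA3E at 8 h against control.

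Leaving out 1 array at a time, differences for SEMA3E at 2 h against control ranged from -0.50 to 0.31 for Gipc1, -1.62 to 0.10 for the Plxnd1 dim probe, -0.56 to 0.44 for Erbb2, -0.08 to 0.59 for the Nrp2 bright probe and -0.38 to 0.97 for Kdr. For SEMA3E at 8 h against control they ranged from -0.54 to 1.19 for the Plxnd1 dim probe, -0.42 to 0.57 for Erbb2, -0.37 to 0.29 for the Nrp2 bright probe, -0.60 to 0.26 for the dim one and -0.19 to 0.10 for the Plxnd1 bright probe. For cytochalasin D against control they ranged from -0.28 to 0.53 for Gipc1, -0.55 to 1.17 for the Plxnd1 dim probe and -0.64 to 0.02 for the Nrp2 bright probe. Against SEMA3E at 8 h, cytochalasin D ranged from -0.46 to 0.42 for the Plxnd1 dim probe and -0.34 to 0.44 for Kdr. For SEMA3E at 8 h against 2 h they ranged from -0.12 to 0.40 for Erbb2, -0.33 to 1.02 for Kdr and -0.08 to 0.21 for the Plxnd1 bright probe.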
